A study of Mus musculus with 2 samples.

Results

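Keratins are the intermediate filament proteins of epithelial cells. The family was taken as every row of both count matrices whose symbol is Krt followed by digits and at most 1 letter, which gave 53 of 31053 genes. Of these, 28 encode type I and 25 encode type II keratins. A filament needs a partner of each type. Krt8 with Krt18 is the usual pair of simple, single-layered epithelia, Krt5 with Krt14 is the pair of the basal layer of stratified epithelia, and Krt1 with Krt10 replaces it in the upper layers of skin. In the thymus, medullary thymic epithelial cells (mTECs) are commonly recognised by Krt5 and Krt14. Some mTECs express genes of peripheral tissues, under control of Aire among other factors, and others take on the features of peripheral cell types such as tuft cells, microfold cells and keratinocytes.

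The cells were mouse thymic epithelial cells sorted as EPCAM-positive and Ly51-negative, and the assay was droplet single-cell RNA sequencing with a 3' tag per molecule. One genotype, Foxn1-Cre(+) Ikaros+/fl, has a single floxed copy of the Ikaros gene, Ikzf1, and the other, Foxn1-Cre(+) Ikarosfl/fl, has both copies floxed, with 1 library each. Both carry the Cre driver, which acts in thymic epithelium. The study asked how deletion of Ikaros in these cells alters gene expression. The names of the deposited matrices mark the +/fl library as knockout and the fl/fl library as control, against the genotypes, and directions below are therefore given between libraries by their sample labels. The labels give no age, sex or number of mice, and not which exons are deleted.

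The +/fl-labelled library kept 4891 cells with 66675011 unique molecular identifiers (UMIs, each standing for 1 captured molecule), and the fl/fl-labelled library kept 7669 cells with 80897462 UMIs. Medians were 10731 and 8187 UMIs per cell. Ikzf1 was at 64.5 UMIs per 1000000 (CPM) in the +/fl-labelled library and 37.7 CPM in the fl/fl-labelled library. A 3' tag need not lie in the deleted part, so these values do not check the labels. Xist was at 1317 and 0.902 CPM and the Y-linked Ddx3y at 0 UMIs and 64.5 CPM. The libraries thus differed in sex as well as in label, and these cannot be told apart. Sorting markers followed the gate, with Epcam at 1162 and 1143 CPM and Enpep, which encodes Ly51, at 3.11 and 4.76 CPM. Among kept cells, 10 barcodes occurred in both libraries. No difference between the libraries could be checked on replicates, and no test was made. Intervals in brackets are exact Poisson 95% intervals of CPM, or exact Clopper-Pearson 95% intervals of a share of cells, and cover counting error only.

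Of the 53 keratins, 52 had at least 1 UMI in a kept cell and 49 had 50 or more. Krt40 had 0 UMIs, a count that allows up to 3 in each library. Krt26, Krt31 and Krt39 had 31, 15 and 22 UMIs, and 24 of those of Krt26 and 21 of those of Krt39 were in Aire-stage-like cells of the fl/fl-labelled library, a class described below. The family is encoded in 1 block on chromosome 11, with 27 of the genes, and another on chromosome 15, with 26. By the GENCODE M21 annotation of GRCm38 the chromosome 11 genes lie between 99232761 and 100269871. The type II genes span 101347444 to 102004482 on chromosome 15, and Krt18, a type I gene, lies 23697 bases beyond Krt8 at the end of that block. Counts of near-identical neighbours (Krt6a and Krt6b, Krt33a and Krt33b, and Krt81, Krt83 and Krt86) are uncertain, since reads shared between copies could be lost or split.

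Promoter sequence is shown for keratins that stand at opposite ends of the range described below: Krt5, the basal keratin of immature-like mTECs, Krt8 and Krt18, the pair present in nearly all epithelial cells, and Krt71 and Krt76, found in few cells and mostly of the Aire stage. Each run is the 250 bases before the RefSeq start on GRCm38.p6, 5′ to 3′ on the gene's strand. Capitals mark a match on either strand to TATAAA (the TATA box), TGANTCA (AP-1), GCCNNNGGC (AP-2) or GGGCGG (the GC box), which do not overlap here. Krt5 is at chr15:101712906-101713155 (minus strand), Krt8 at chr15:102004343-102004592 (minus), Krt18 at chr15:102027966-102028215 (plus), Krt71 at chr15:101743098-101743347 (minus) and Krt76 at chr15:101892921-101893170 (minus).
Krt5: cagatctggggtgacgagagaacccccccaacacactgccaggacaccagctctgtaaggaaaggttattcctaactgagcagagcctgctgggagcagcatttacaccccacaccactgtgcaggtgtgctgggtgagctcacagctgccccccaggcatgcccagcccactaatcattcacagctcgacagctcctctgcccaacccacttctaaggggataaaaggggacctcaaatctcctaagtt
Krt8: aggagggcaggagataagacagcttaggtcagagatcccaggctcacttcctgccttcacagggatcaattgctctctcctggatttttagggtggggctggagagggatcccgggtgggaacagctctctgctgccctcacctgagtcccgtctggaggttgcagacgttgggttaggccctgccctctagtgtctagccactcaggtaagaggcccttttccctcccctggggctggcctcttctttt
Krt18: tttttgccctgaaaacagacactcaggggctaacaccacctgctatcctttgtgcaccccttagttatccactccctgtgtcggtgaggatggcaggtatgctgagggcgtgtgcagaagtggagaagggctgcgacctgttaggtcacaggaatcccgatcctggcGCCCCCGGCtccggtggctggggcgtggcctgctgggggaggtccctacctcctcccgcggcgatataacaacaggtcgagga
Krt71: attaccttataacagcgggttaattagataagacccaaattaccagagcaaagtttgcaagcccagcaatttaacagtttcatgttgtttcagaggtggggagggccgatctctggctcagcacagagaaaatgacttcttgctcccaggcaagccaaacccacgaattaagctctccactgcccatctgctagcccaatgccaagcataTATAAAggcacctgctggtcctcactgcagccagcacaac
Krt76: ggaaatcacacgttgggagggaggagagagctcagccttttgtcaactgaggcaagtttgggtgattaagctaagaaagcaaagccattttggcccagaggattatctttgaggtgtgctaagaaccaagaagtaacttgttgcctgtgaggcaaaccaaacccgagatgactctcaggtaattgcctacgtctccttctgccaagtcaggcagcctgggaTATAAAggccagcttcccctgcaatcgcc
The Krt71 and Krt76 windows hold a TATAAA that begins at position -40 and -29, counting the last base before the start as -1. Those exact letters are absent from the windows of Krt5, Krt8 and Krt18. Near matches, such as gataaaag in the Krt5 window and gatataac in that of Krt18, were not counted. Krt18 has a GCCNNNGGC match that begins at -83.

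RefSeq promoters were matched for 36 keratin genes (37 starts). TATAAA on either strand was found in 17 of the 37 (45.9%), against 12.4% of all 32817 promoter windows of the same length. On the gene's own strand and with its first base between -50 and -20 it was found in 14 of 37 (37.8%), against 2.32% of all. Among the 6 promoters at hand of keratins highest in Aire-stage-like cells in both libraries, 4 held it there (Krt12, Krt71, Krt73 and Krt76). Of the 5 at hand for keratins highest in immature-like or tuft-like cells (Krt5, Krt7, Krt14, Krt8 and Krt18), 0 held those exact letters there. It was also there in 2 of 9 promoters of keratins highest in keratinocyte-like cells, 1 of 2 of those highest in microfold-like cells and 7 of 15 others. The others are keratins whose highest class differed between libraries, and Krt26, Krt31, Krt39 and Krt40. Those named had under 50 UMIs and were given no class, and Krt26, Krt31 and Krt40 are among the 7. GGGCGG was found in 2 of the 37 keratin windows (5.41%) and in 32.7% of all windows. TGANTCA was in 5.41% and 6.75%, and GCCNNNGGC in 13.5% and 13.7%. A match is a description of the letters, not a bound site.

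Cells were clustered without any keratin gene, and clusters were named by resemblance to marker lists that hold no keratin, so that keratin levels took no part in forming or naming the classes. Keratin UMIs made up the largest share of all UMIs in keratinocyte-like cells, at 2.19% in the +/fl-labelled library and 1.40% in the fl/fl-labelled library. Immature-like mTECs, with Ccl21a, Pdpn and Trp63, followed at 1.43% and 1.13%. Cycling cells were at 0.789% and 0.600%, tuft-like cells at 0.689% and 0.747%, Aire-stage-like cells at 0.637% and 0.572%, and microfold-like cells at 0.424% and 0.516%. This order, from keratinocyte-like and immature-like cells at the top to microfold-like cells at the bottom, was shared by both libraries except that tuft-like cells stood above cycling cells in the fl/fl-labelled library.

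Thymocytes and dendritic cells in the sort give the level found in cells that should lack keratins. T-lineage cells held 0.266% and 0.138% keratin UMIs, and myeloid and dendritic cells 0.243% and 0.126%. In T-lineage cells Krt5 was at 325 CPM in the +/fl-labelled library and 105 CPM in the fl/fl-labelled library, and Krt17 was at 711 and 378 CPM. These UMIs were concentrated in a few cells. The median T-lineage cell had 0 UMIs of Krt5 and of Krt14 in both libraries, and the 10% of cells with the most held 93.6% and 72.9% of the Krt5 UMIs. The T-lineage mean is thus a level set by few cells and not that of a typical cell. Keratin values at or below it are not called above background here, though lying below it does not show that a value is background.

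**Figure D1:**
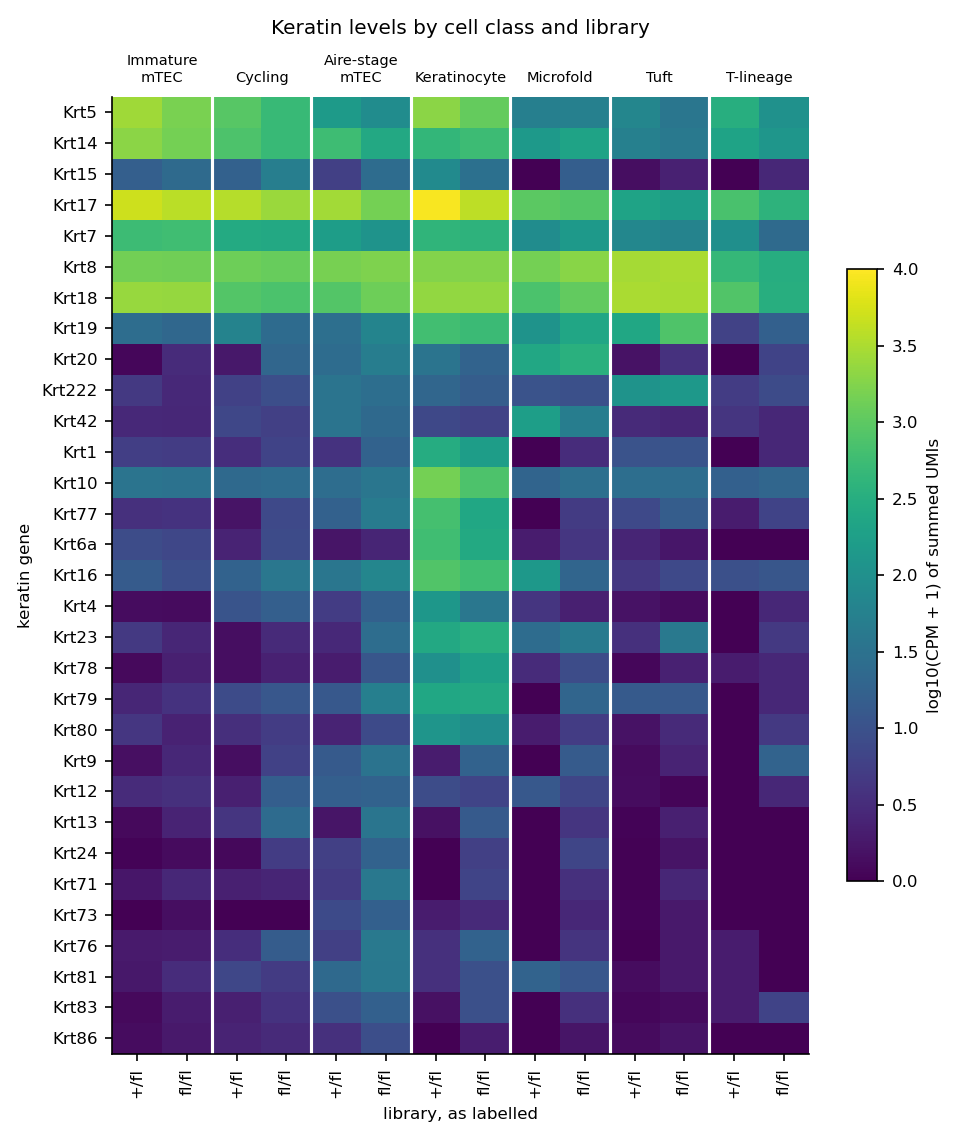
Heat map of log10(CPM + 1) for 31 keratins (rows) in 6 epithelial classes and in T-lineage cells, with both libraries side by side for each class (columns). Krt8 and Krt18 are high in all 6 epithelial classes, Krt5 and Krt14 are high in immature-like and dim in tuft-like cells, and the rows from Krt9 down are brightest in Aire-stage-like cells except Krt13 in the +/fl-labelled library.

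For 33 of the 49 keratins with 50 or more UMIs the highest of the 6 epithelial classes was the same in both libraries. It was the keratinocyte-like class for 16, the Aire-stage-like class for 9, the immature-like class for 3, the tuft-like class for 3 and the microfold-like class for 2. The highest class differed between libraries for the other 16, among them Krt13, Krt15 and Krt19 and several hair keratins. One of these, Krt84, a keratin of nail and hair, was at 43.9 CPM in keratinocyte-like cells of the fl/fl-labelled library, and its highest level in the +/fl-labelled library was 0.737 CPM, in Aire-stage-like cells. Counts of keratins by highest class lack the share of all genes and are not read against background. Some rest on low levels, with Krt36 at 2.63 CPM and Krt32 at 5.25 CPM in the 96 keratinocyte-like cells labelled +/fl. The Aire-stage-like class was made up of mostly different clusters in each library, as described below. A highest class shared by both libraries there need not mean the same kind of cell.

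The basal pair was highest in immature-like mTECs. Krt5 reached 2710 CPM (2679 to 2742) in the +/fl-labelled library and 1570 (1546 to 1594) in the fl/fl-labelled library. Krt14 reached 2047 (2020 to 2074) and 1445 (1422 to 1469). Both genes were below the T-lineage level in tuft-like cells, which had 66.4 and 36.7 CPM of Krt5 and, for Krt14, 54.0 and 40.5 CPM. Aire-stage-like cells kept Krt14 at 573 and 255 CPM, above the T-lineage level of 211 and 127. Their Krt5, at 149 and 86.7 CPM, was below the T-lineage level but above that of myeloid and dendritic cells, 106 and 43.8 CPM. UMI levels are counts of 3' tags and are not divided by gene length, so that the ratio of Krt14 to Krt5 counts captured molecules. That ratio was 3.85 in Aire-stage-like cells of the +/fl-labelled library and 2.94 in those of the fl/fl-labelled library. By the rule above, the Krt5 in this ratio is not called above background, so the libraries are not compared on it.

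Krt17, a keratin of hair follicles and of injured or activated epidermis, was the most abundant keratin over all kept cells of both libraries, at 2297 and 1854 CPM. In keratinocyte-like cells it reached 9112 CPM (8977 to 9249) in the +/fl-labelled library and 4051 (4003 to 4101) in the fl/fl-labelled library. It was at 4999 and 3831 CPM in immature-like cells and at 2792 and 1467 in Aire-stage-like cells. In tuft-like cells it was at 209 and 165 CPM, below the T-lineage values. Krt7, a simple keratin of glands and ducts, was highest in immature-like cells among the 6 large epithelial classes, at 557 and 587 CPM. The smaller neuroendocrine-like class (27 and 250 cells) exceeded it at 728 and 982 CPM.

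Krt8 and Krt18 were the general keratins of the sort. Krt8 was between 1155 and 3112 CPM in all 6 large epithelial classes of both libraries, which span a range of under 3-fold. Krt18 ranged from 744 to 3131 CPM. Both were highest in tuft-like cells, where Krt8 was at 2928 (2904 to 2952) and 3112 (3070 to 3155) CPM and Krt18 at 3131 (3106 to 3156) and 2977 (2936 to 3019) CPM. The pair formed 88.0% and 81.6% of the keratin UMIs of tuft-like cells. In immature-like cells it formed 27.0% and 32.9%. The UMIs of Krt18 per UMI of Krt8 were 1.71 and 1.72 in immature-like cells and 1.07 and 0.957 in tuft-like cells. They were 0.556 and 0.758 in Aire-stage-like cells and 0.508 and 0.568 in microfold-like cells. The ratio was thus higher in immature-like cells than in Aire-stage-like and microfold-like cells in both libraries. How well each gene is captured was not tested, so a ratio above or below 1 does not show which transcript was in excess. Small classes were also rich in Krt8, with 2584 and 3037 CPM in neuroendocrine-like cells and 3293 and 2513 CPM in ciliated-like cells (16 and 70 cells).

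Basal and simple keratins were counted in the same cells after each cell was thinned to 2000 UMIs. In immature-like cells, 94.6% (93.0 to 95.9) of 962 cells in the +/fl-labelled library and 92.0% (90.4 to 93.3) of 1419 cells in the fl/fl-labelled library had UMIs of Krt5 or Krt14 together with Krt8 or Krt18. In tuft-like cells the same shares were 17.1% (15.4 to 18.9) of 1760 and 14.6% (12.1 to 17.3) of 756. T-lineage cells had 17.1% (9.44 to 27.5) of 76 and 11.5% (6.11 to 19.3) of 104, so the tuft-like values lay within the T-lineage intervals at this depth. Without thinning, the shares were 99.1% and 96.3% in immature-like, 48.9% and 35.9% in tuft-like and 37.6% and 24.6% in T-lineage cells, whose median depths were 4594 and 3317 UMIs. UMIs of Krt8 or Krt18 alone were found in 82.7% and 84.7% of tuft-like cells. Cells with Krt5 or Krt14 alone were at most 4.79% of any of the 6 large epithelial classes. Aire-stage-like cells differed between libraries, with both kinds in 60.7% (57.2 to 64.2) of 787 +/fl-labelled cells and 33.9% (31.9 to 35.8) of 2313 fl/fl-labelled cells, and 87.7% and 71.8% without thinning.

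**Figure D2:**
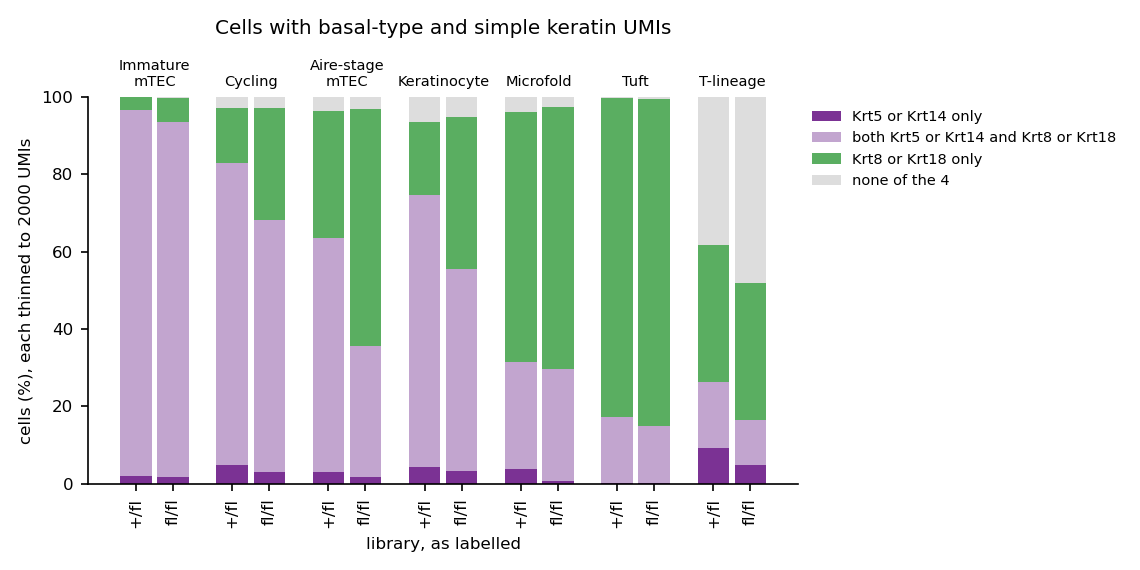
Share of cells (vertical axis, %) with UMIs of Krt5 or Krt14 only, of both kinds, of Krt8 or Krt18 only, or of none, by class and library, with each cell thinned to 2000 UMIs. The share with both kinds is over 90% in immature-like cells and 17.1% and 14.6% in tuft-like cells.

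Krt20, a keratin of intestinal surface epithelium, was highest in microfold-like cells, whose marker genes include Gp2, Ccl20 and Sox8 and whose leading genes included the enterocyte genes Fabp1 and Sis. It was at 248 CPM (217 to 281) in 63 cells labelled +/fl and 341 CPM (326 to 356) in 486 cells labelled fl/fl. In immature-like and tuft-like cells it was at 2.72 CPM or less. Krt42, whose reads may be shared with its near copy Krt17, was also highest there, at 172 (147 to 201) and 49.4 (43.9 to 55.5) CPM. Krt20 was the higher of the pair in both libraries, and the levels of Krt42 in the libraries did not overlap within counting error.

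The keratinocyte-like class (96 and 492 cells) held the highest level of 16 keratins in both libraries. Most of its cells were named secretory-like in a finer clustering below. Krt10, the type I keratin of the upper skin layers, was at 1480 CPM (1426 to 1536) in the +/fl-labelled library and 754 (733 to 776) in the fl/fl-labelled library. Its type II partner Krt1 was at 296 (272 to 322) and 165 (155 to 175) CPM, below Krt77, another type II keratin of skin, at 654 (618 to 692) and 242 (230 to 255) CPM. Krt6a, Krt16 and Krt17, induced in wounded epidermis, were at 583 and 266, 824 and 590, and 9112 and 4051 CPM. Over the whole class these levels were lower in the fl/fl-labelled library. Krt78, Krt79, Krt23 and Krt80 are further stratified-type or glandular keratins, and the levels of Krt78 (100 and 186 CPM) and Krt23 (257 and 330 CPM) were higher in the fl/fl-labelled library. The class was too small in the +/fl-labelled library for the gene-by-gene comparison below.

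A finer clustering at resolution 2 divided this class. Of its 96 cells labelled +/fl, 36 kept the keratinocyte name and 60 were named secretory-like, a group with Agr2 and other gland genes. Of its 492 cells labelled fl/fl, 112 kept the name and 379 were secretory-like. All secretory-like cells of that clustering numbered 71 and 491, so their levels below include cells from outside this class. The skin-type keratins were in the smaller group. Krt10 was at 3738 CPM (3596 to 3885) and 2401 (2321 to 2484) in the keratinocyte-like cells of that clustering, against 166 (145 to 190) and 267 (255 to 280) in its secretory-like cells. Krt1 was at 779 and 599 CPM against 17.7 and 37.8. Krt16 was at 1860 and 2006 CPM against 206 and 210, so that it was not lower in the fl/fl-labelled library within either group. Krt10, Krt1 and Krt77 (38.4 and 52.0 CPM) were not lower there within the secretory-like cells. Krt8, Krt18 and Krt19 went the other way, and Krt18 was at 865 and 882 CPM in keratinocyte-like cells against 3003 and 2492 in secretory-like cells. Krt6a was at 658 and 201 CPM in the secretory-like cells of that clustering, against 583 and 266 over the whole class. Krt4 was at 163 and 27.4 CPM there, against 130 and 37.5 over the class. Neither can thus be read as a keratin of the keratinocyte-like cells alone. Krt17 was also lower in the fl/fl-labelled library within the secretory-like cells, at 6596 and 2500 CPM. Cells with at least 3 UMIs of Krt10 made up 40.6% of the whole class in the +/fl-labelled library and 24.2% in the fl/fl-labelled library. Of the cells with at least 3 UMIs of Krt77, 86.2% (25 of 29) and 77.4% (41 of 53) also had 3 or more of Krt10.

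Among the 6 large epithelial classes, Aire-stage-like cells held the highest level of 9 keratins in both libraries: Krt9, Krt12, Krt24, Krt71, Krt73, Krt76, Krt81, Krt83 and Krt86. Elsewhere in the body these belong to palm and sole skin (Krt9), cornea (Krt12), the hair root sheath (Krt71 and Krt73), the palate (Krt76) and hard hair and nail (Krt81, Krt83 and Krt86). Their levels were low and carried by few cells. Krt9 was at 12.8 CPM (11.2 to 14.5) and 32.3 (30.4 to 34.3), and the class held 90.7% and 76.2% of all its UMIs while holding 26.4% and 41.8% of the UMIs of all genes. Krt71 was at 3.97 (3.1 to 5.02) and 38.4 (36.3 to 40.5) CPM, with 76.1% and 87.9% of its UMIs in the class. Krt76 was at 4.82 (3.85 to 5.96) and 40.1 (38.0 to 42.3) CPM. Krt81 was at 22.1 (19.9 to 24.4) and 38.6 (36.5 to 40.8) CPM. Some of the 9 leads over the next class were small. In the +/fl-labelled library Krt81 and Krt12 (15.4 CPM) were followed by microfold-like cells at 17.8 and 11.5 CPM. In the fl/fl-labelled library Krt12 was at 17.4 CPM, against 14.4 in cycling cells.

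A few cells held a large share of these molecules. The 10 cells with the most Krt13, a keratin of mucosal lining, held 59.9% of its 1473 UMIs, and 1 cell held 278. For Krt71 the top 10 cells held 36.9% of 1566 UMIs, for Krt9 18.7% of 1680, and for Krt8 1.11% of 262756. In Aire-stage-like cells labelled fl/fl, 337 of 2646 (12.7%) had 3 or more UMIs of exactly 1 of the 9 keratins above, 94 (3.55%) of 2, 36 (1.36%) of 3 or more, and 2179 (82.4%) of none. In those labelled +/fl, 791 of 899 (88.0%) had none and 92 (10.2%) had 1.

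Overlaps between keratins in the same Aire-stage-like cells were uneven. The pairs named here were chosen after their values were seen. In the fl/fl-labelled library, 119 cells had 3 or more UMIs of Krt76 and 116 of Krt77, and 50 had both, which is 42.0% of the former and 43.1% of the latter. Each gene alone was at that level in 4.50% and 4.38% of the class. In the +/fl-labelled library, 5 of 8 Krt76 cells and of 16 Krt77 cells had both. Krt13 and Krt15 shared 16 cells of 35 and 41, a share of 45.7% and 39.0%, in the fl/fl-labelled library. Krt71 and Krt73, both of the inner root sheath, shared 10 cells of 68 and 37. Krt81 and Krt83 shared 22 of 135 and 56, which could include reads split between similar copies. By contrast Krt13 and Krt4, partners in mucosal epithelium, shared 2 cells of 35 and 41, and Krt1 and Krt10 shared 4 of 39 and 62. Krt76 is the next keratin gene to Krt77 on chromosome 15, and Krt15 the next to Krt13 on chromosome 11. The overlapping pairs named were of 1 filament type each (type II, or type I for Krt13 and Krt15). Both named pairs of type I and type II partners overlapped in few cells. Since the pairs were picked by their values, neither position nor filament type can be read as a pattern over all pairs.

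Krt19, a type I keratin of simple and ductal epithelia, and Krt222, a keratin-related gene, set groups of tuft-like cells apart. Tuft cells are chemosensory cells, and the lists used here divide their markers into an immune-like set with Nrgn and Ptgs1, a taste-like set with Gnat3 and Il25, and a set of Rgs21, Ovol3 and Nrep. In all tuft-like cells (1821 labelled +/fl and 822 labelled fl/fl) Krt19 was at 242 CPM (235 to 249) and 804 (782 to 826). Krt222 was at 111 (106 to 116) and 136 (127 to 145) CPM. In immature-like cells Krt222 was at 3.69 and 1.86 CPM.

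Clustering of the tuft-like cells alone gave 6 groups, and the groups were divided unevenly between libraries. Those named immune-like held 1191 +/fl-labelled and 89 fl/fl-labelled cells, those named by Rgs21 and Ovol3 held 541 and 115, and an unnamed group held 28 and 602. The unnamed group was led by Eif2s3y and Ddx3y, with Uty and Kdm5d also among its 10 leading genes, all Y-linked. The fl/fl side of the contrast below rests on the named groups, of 89 and 115 cells. No group took the taste-like name. Krt19 was at 59.9 CPM (55.2 to 64.9) in immune-like cells of the +/fl-labelled library and 485 (470 to 501) in its Rgs21 and Ovol3 cells. In the fl/fl-labelled library the values were 488 (428 to 554) and 1627 (1555 to 1701). Krt222 was at 71.3 and 162 CPM in the +/fl-labelled library and at 55.8 and 128 in the fl/fl-labelled library. Of 8 keratins that passed the filter, these 2 were at least 2-fold higher in Rgs21 and Ovol3 cells in both libraries, against 3.03% of all genes, and 0 were lower, against 2.09%. Krt8 and Krt18 were slightly lower there, at 2583 against 3216 CPM and 2671 against 3523 in the +/fl-labelled library. The highest Krt19 of the 6 groups was in the Rgs21 and Ovol3 sub-cluster of 64 and 81 cells, at 1829 (1741 to 1920) and 2076 (1980 to 2175) CPM, where the libraries were close. An unnamed sub-cluster of 61 and 16 cells carried Krt5 at 498 and 184 CPM and Krt17 at 1403 and 379.

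Because those groups followed the libraries, the same question was put to the clusters of all cells, a choice made after seeing the data. Of the pair that make up the tuft-like class, cluster 9 (605 and 513 cells) led with Gnat3, Rgs21 and Il25 and cluster 8 (1216 and 309 cells) with Nrgn and Pik3cg. Krt19 was at 504 CPM (489 to 519) in cluster 9 and 41.6 (37.8 to 45.6) in cluster 8 of the +/fl-labelled library. In the fl/fl-labelled library it was at 972 (945 to 1000) and 248 (224 to 274). Krt19 was the 1 keratin of 11 past 2-fold in both libraries, against 2.92% of all genes, and 0 were lower, against 1.55%. Krt222 was at 161 against 72.6 CPM and 150 against 87.7, past 2-fold only in the +/fl-labelled library. Krt19 was higher in the fl/fl-labelled library within each of the clusters.

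Each library's tuft-like cells were also ranked by the share of taste-like marker UMIs among taste-like and immune-like marker UMIs and divided into 3 equal groups. This is a range of an index, not a cell type, and cells with equal values lie on both sides of a boundary. Krt19 climbed along it in both libraries, from 19.3 CPM (15.6 to 23.5) through 49.3 (44.0 to 55.0) to 539 (523 to 556) in the +/fl-labelled library. In the fl/fl-labelled library it went from 230 (206 to 255) through 596 (565 to 628) to 1296 (1254 to 1339). Krt222 went from 72.5 through 77.7 to 162 CPM and from 106 through 123 to 163. Krt8 went from 3181 to 2576 and from 3307 to 2977 CPM. The groups do not hold the same index values, since the highest group began at 0.409 in the +/fl-labelled library and at 0.714 in the fl/fl-labelled library.

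**Figure D3:**
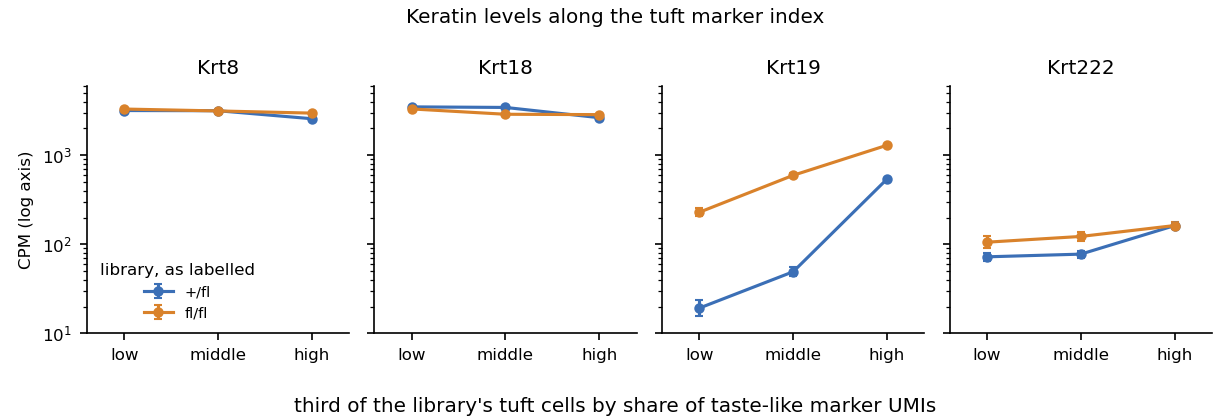
CPM (log axis) of Krt8, Krt18, Krt19 and Krt222 in tuft-like cells of each library, divided into 3 equal groups by the share of taste-like marker UMIs (horizontal axis), with exact Poisson 95% intervals. Krt19 climbs from 19.3 to 539 CPM in the +/fl-labelled library and from 230 to 1296 CPM in the fl/fl-labelled library, while Krt8 and Krt18 lie between 2576 and 3497 CPM in all groups.

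Between libraries and over all kept cells, 27 keratins passed a filter of 10 CPM in either library and 50 UMIs over both. Of them, 12 were at least 2-fold higher in the fl/fl-labelled library, where 7.25% of the 9931 genes that passed were, and 0 were at least 2-fold lower, where 3.43% of genes were. The median log2 ratio was 0.81 over the 27 keratins and -0.05 over all genes. The ratio was above 0 for 21 of the 27 keratins and for 43.6% of all genes. A gene under 10 CPM in 1 library passes by the other alone and can be called only toward that other. Of the 12, this held for Krt9, Krt13, Krt15, Krt71, Krt76, Krt78, Krt80 and Krt81, toward the fl/fl-labelled library. No keratin passed by the +/fl-labelled library alone. These counts, the median and the share above 0 are thus partly set by the filter, which also applied to all genes. The other 22 keratins with 50 or more UMIs were at 9.15 CPM or less in both libraries and were not compared. The abundant keratins were not among the 12. Krt8 was at 1808 and 1758 CPM, Krt18 at 1796 and 1566, Krt14 at 613 and 422, and Krt5 at 677 and 386.

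The 12 were Krt9, Krt13, Krt15, Krt16, Krt20, Krt23, Krt71, Krt76, Krt78, Krt79, Krt80 and Krt81. Krt13 was at 0.540 CPM and 17.8 CPM, a ratio of 32.9 (95% interval 23.7 to 47.2), and was found in 16 and 128 cells. Krt71 was at 1.38 and 18.2 CPM in 32 and 188 cells. Ratios are of CPM with nothing added, while log2 ratios and the 2-fold calls have 1 CPM added to each level, which gives a log2 of 3.61 for Krt13. Krt20 was at 11.9 and 50.2 CPM and Krt23 at 10.5 and 47.3 CPM. The ratios of Krt16 (2.09) and Krt80 (2.18) were near the threshold, and their log2 values with library scaling by TMM, a trimmed mean of ratios over genes, were 0.94 and 0.91, under 2-fold. A stricter cell filter gave 0.95 and 0.96. Keratins of hair and nail summed to 14.7 and 58.9 CPM, those of the inner root sheath to 6.78 and 38.8 CPM, and mucosal and corneal keratins to 17.0 and 80.0 CPM. Summed basal keratins (Krt5, Krt14 and Krt15) were at 1298 and 832 CPM.

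Class sizes differed between the libraries. Aire-stage-like cells were 18.4% of kept cells in the +/fl-labelled library and 34.5% in the fl/fl-labelled library, keratinocyte-like cells 1.96% and 6.41%, microfold-like cells 1.29% and 6.34%, and tuft-like cells 37.2% and 10.7%. More cells of a class and more RNA per cell cannot be told apart in a sum over all cells.

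**Figure D4:**
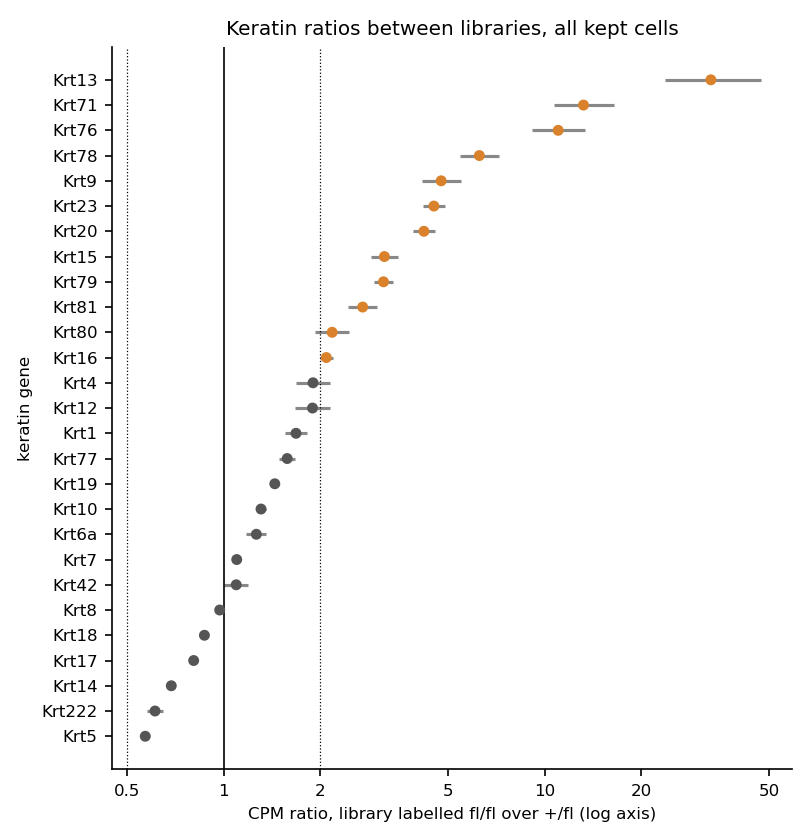
Ratio of CPM in the fl/fl-labelled library to that in the +/fl-labelled library (horizontal log axis) for the 27 keratins that passed the filter (vertical axis), over all kept cells, with exact 95% intervals of counting error. Orange points are the 12 at least 2-fold higher, from Krt16 to Krt13, of which Krt16 and Krt80 were under 2-fold with TMM scaling, and dotted lines mark 2-fold either way.

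Within immature-like cells, of 10 keratins tested, 0 were 2-fold higher (0.863% of all genes) and 0 were 2-fold lower (0.828%). The largest difference was that of Krt5, with a log2 ratio of -0.79 and a ratio of 0.579 (0.568 to 0.591), followed by Krt16 at -0.62 and Krt14 at -0.50. Krt7, Krt8 and Krt18 had log2 ratios of 0.08, -0.06 and -0.05.

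Within Aire-stage-like cells 14 of 29 keratins were 2-fold higher in the fl/fl-labelled library (10.1% of all genes) and 1 was lower (4.08%), with a median log2 ratio of 0.96 against -0.02 over all genes. The higher keratins included Krt13 (log2 4.42), Krt23 (3.23), Krt71 (2.98), Krt76 (2.82), Krt78 (2.56), Krt1 (2.19) and Krt15 (2.19). Of the 14, only Krt9, Krt19, Krt77 and Krt79 reached 10 CPM in both libraries, and the rest passed by the fl/fl-labelled library alone. The lower keratin was Krt14, at 573 and 255 CPM, whose log2 ratio of -1.16 was -0.95 at clustering resolution 0.5 and -0.97 with the stricter cell filter. Those of Krt19 (1.12) and Krt73 (1.11) were 0.99 each with TMM scaling. Krt17 was at 2792 and 1467 CPM, a log2 ratio of -0.93. Both genes were also lower in myeloid and dendritic cells, which stand for the background. There Krt14 was at 216 and 78.6 CPM (log2 -1.45) and Krt17 at 991 and 345 (log2 -1.52). The part of background RNA in the Krt14 and Krt17 values of Aire-stage-like cells was not tested. Different clusters made up the Aire-stage-like class in each library. Cluster 4, led by Gpx6, contributed 822 of 899 +/fl-labelled cells but 24 of 2646 fl/fl-labelled cells, cluster 6, led by glandular kallikreins, held 62 and 1292, and cluster 16 held 15 and 1330. Myeloid and dendritic markers, a list of 10 genes, summed to 715 and 1440 CPM in the class, with 9 and 10 of them detected, and their part in the ratios was not tested. Within cluster 6, on few UMIs of the +/fl-labelled library, Krt76 was at 8.49 (2.32 to 21.8) and 30.2 CPM, Krt71 at 4.25 (0.514 to 15.3) and 30.02, and Krt79 at 29.7 and 82.6. Krt77 was at 99.8 and 25.8 CPM there, against its direction over the class (16.7 and 45.1 CPM), and Krt42 was at 99.8 and 21.9 CPM. In cluster 4, with 24 cells of the fl/fl-labelled library, Krt71 was at 4.04 and 24.6 (10.6 to 48.4) CPM and Krt76 at 3.15 and 3.07 (0.0778 to 17.1). Cells labelled +/fl in cluster 6 had a median of 2652 UMIs, against 8326 in those labelled fl/fl.

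With doublets kept, the Gpx6 cells joined the tuft-like class and the Aire-stage-like class kept 101 cells labelled +/fl. The count of higher keratins was then 5 and that of lower keratins 4, and the log2 ratios of Krt15, Krt19, Krt73 and Krt77 were -0.082, -0.32, -0.42 and -0.017. Those of Krt76, Krt23, Krt79 and Krt14 were 0.33, 0.49, 0.77 and -0.39, under 2-fold.

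In cycling cells 6 of 16 keratins were higher (2.11% of all genes) and 1 was lower (2.37%). Krt20 was at 0.840 and 19.96 CPM, Krt12 at 1.26 and 14.4, Krt13 at 3.15 and 24.4, Krt76 at 2.31 and 13.7, Krt15 at 16.2 and 49.9, and Krt16 at 17.2 and 38.2. Of the 6, Krt15 and Krt16 alone reached 10 CPM in both libraries. The lower keratin was Krt19, at 61.1 and 24.2 CPM. With doublets kept, its log2 ratio reversed to 1.47, and 10 keratins were higher and 0 lower.

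In tuft-like cells 3 of 12 keratins were higher (3.52% of all genes) and 0 were lower (2.05%). Krt19 had a ratio of 3.32 (3.19 to 3.46) and Krt23, at 2.55 and 40.3 CPM, one of 15.8 (11.6 to 21.9). Of the 3, Krt19 alone reached 10 CPM in both libraries. After thinning, Krt19 UMIs marked 13.4% (11.8 to 15.03) of the 1760 tuft-like cells of the +/fl-labelled library and 43.0% (39.4 to 46.6) of the 756 of the fl/fl-labelled library, against 1.32% and 2.88% of T-lineage cells. Without thinning the tuft-like shares were 23.9% and 53.4%. Krt23 was found in 0.398% and 5.42% after thinning. Myeloid and dendritic markers summed to 52.3 and 178 CPM in tuft-like cells, with 8 of 10 detected in each library, and their part was not tested. The third keratin, Krt77, at 6.50 and 14.0 CPM, reversed to log2 ratios of -0.18, -0.54 and -0.63 under clustering at resolution 0.5, at resolution 2 and with a stricter cell filter. Krt8, Krt18 and Krt222 had log2 ratios of 0.09, -0.07 and 0.29.

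In myeloid and dendritic cells 0 of 8 keratins were higher (1.66% of all genes) and 4 were lower (3.9%), namely Krt5 (106 and 43.8 CPM), Krt7 (70.8 and 27.8), Krt14 (216 and 78.6) and Krt17 (991 and 345). With doublets kept, 1 was lower and 1 higher, and the log2 ratios of Krt5, Krt7 and Krt14 were -0.55, -0.80 and 0.039. These cells stand for the background, as do T-lineage cells, whose Krt5 was also lower in the fl/fl-labelled library (325 and 105 CPM). Krt5 was lower in the fl/fl-labelled library in all 5 compared classes, with log2 ratios from -0.77 to -1.25. The part of background RNA in the Krt5 values of immature-like cells, 2710 and 1570 CPM, was not tested.

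Small classes and clusters outside the classes were described only. A cluster of 31 cells (19 and 12), led by Upk3b, Col1a2 and Muc16 at an Epcam level of 152 and 209 CPM, had Krt19 at 1859 and 1933 CPM. Neuroendocrine-like cells had Krt19 at 360 and 337 CPM. Cells with matrix genes and Epcam, mostly of the +/fl-labelled library (149 and 21), held 0.367% and 0.182% keratin UMIs. A cluster with tuft and muscle genes (126 and 44 cells) had Krt18 at 1180 and 1244 CPM and Krt19 at 74.7 and 78.8.

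Other genes of the keratin cytoskeleton were read from fixed lists. Of 10 tested desmosome genes, which anchor keratins at cell contacts, 1 was 2-fold higher over all kept cells (7.25% of all genes), Dsg1a, the desmoglein of differentiated skin, at 12.0 and 52.4 CPM. In Aire-stage-like cells 2 of 9 were higher (10.1% of all genes), Dsg1a at 13.0 and 55.5 CPM and Dsc3 at 4.54 and 13.3. Of 9 genes of hemidesmosomes and cytolinkers, which tie keratins to the basement membrane and to each other, 0 were higher and 1 was lower over all kept cells (3.43% of all genes), Eppk1, at 166 and 76.6 CPM. In Aire-stage-like cells 1 of 9 was lower (4.08% of all genes), Lamb3, at 42.2 and 12.4 CPM. Of 9 other intermediate filaments, 2 were higher over all kept cells (7.25% of all genes). They were Prph at 13.6 and 36.6 CPM and Nefm at 5.13 and 13.7, both neuronal. In Aire-stage-like cells 1 of 7 was higher (10.1% of all genes), Nefl at 8.05 and 22.55 CPM. There 1 was lower (4.08%), Vim at 816 and 347 CPM. Of 8 regulators of keratin genes, 1 was higher over all kept cells (7.25% of all genes), Ovol1 at 7.66 and 16.4 CPM. In Aire-stage-like cells 3 of 8 regulators were higher (10.1% of all genes). They were Ovol1 (6.465 and 17.4 CPM), Klf4 (84.3 and 175) and Grhl1 (5.73 and 12.6). Of the genes called higher, Dsc3, Nefm, Nefl, Ovol1 and Grhl1 were under 10 CPM in the +/fl-labelled library. They passed by the fl/fl-labelled library alone and could be called only higher. In immature-like cells 0 of 8 regulators passed 2-fold in either direction (0.863% and 0.828% of all genes), with Trp63 at 148 and 207 CPM. Itga6, Itgb4, Dst and Trp63 of these lists are also markers of immature-like cells, and Grhl1 is one of keratinocyte-like cells.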

How the data were processed

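Gene by cell counts of UMIs were deposited by the authors for 2 single-cell libraries, 1 per genotype, and Cell Ranger and Seurat are named without versions in the submitters' processing notes. Per the file headers the count matrices were written by software version 3.1.0. The genome build behind them is not given in the sources used here, and coordinates are those of the GENCODE M21 annotation of GRCm38, matched by Ensembl identifier. Promoter sequences are from RefSeq.

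Barcodes below 500 genes or 1000 UMIs, or above 15% mitochondrial UMIs, were dropped, leaving 69.8% of 7304 barcodes labelled +/fl and 74.0% of 11095 labelled fl/fl. Scrublet's automatic cut marked under 0.5% of cells and was not used. Instead the highest-scoring 0.8% per 1000 cells were removed, 208 and 539 cells. Counts were scaled to 10000 per cell, and 2000 variable genes other than keratins, 30 principal components and 15 neighbours were used for Leiden clustering at resolution 1 (scanpy 1.11.5, igraph 0.11.9, python 3.11.15). Names came from the marker list that a cluster met in the largest share, a marker being met in at least 10% of cells and at 2-fold the median of other clusters, with at least 3 met. That share rule, the withholding of non-epithelial names from Epcam-rich clusters, and the 1.5-fold threshold for tuft sub-clusters were set after the clusters were seen. The tuft-like sub-clusters were made at resolution 0.5.

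UMIs were summed per class and library and divided by the class total (CPM). Log2 ratios between libraries and the 2-fold calls use 1 CPM added to each level, and ratios not given as log2 are of CPM with nothing added. They were taken over genes with 10 CPM in either library and 50 UMIs over both, in classes of at least 100 cells per library. Highest classes were compared over the 6 epithelial classes with at least 50 cells per library. The text names every keratin past 2-fold, those highest in a class in both libraries, and the most abundant; genes outside the family come from lists. The members and lists were chosen with earlier results of these data known. Alternatives varied normalisation, filters, thresholds, thinning depth, clustering and doublets.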

Additional observations from a re-analysis of the deposited data

How the results depend on the processing

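No paired analysis was possible because each genotype had 1 library, so no replicate could be left out either. Of 116 alternatives to the 16 counts, 88 gave a count within 1.5 times of the one reported, and of 251 alternatives to 41 keratin ratios, 214 kept their side of 2-fold, 28 crossed it and 9 reversed. Counts under alternatives, here and above, lack the share of all genes under the same setting and are not read against background. With no filter beyond 1 UMI, the higher keratins numbered 26 over all cells, 28 in Aire-stage-like, 16 in cycling, 3 in immature-like, 5 in myeloid and 6 in tuft-like cells. At a fold of 1.5, the lower keratins numbered 2 over all cells, 3 in Aire-stage-like, 3 in cycling, 2 in immature-like and 1 in tuft-like cells, and 1 was higher in myeloid cells. The lower count in Aire-stage-like cells was 2 with TMM factors and 0 at resolution 0.5 or with the stricter cell filter. The lower count in cycling cells was 2 at resolution 0.5, at resolution 2 and with keratins kept in the clustering, which gave 1 higher keratin in myeloid cells. With doublets kept, Aire-stage-like cells had 5 higher and 4 lower, cycling cells 10 and 0, myeloid cells 1 and 1, and 3 were lower in tuft-like cells. Reversed log2 ratios with doublets kept were those of Krt15 (-0.082), Krt19 (-0.32), Krt73 (-0.42) and Krt77 (-0.017) in Aire-stage-like cells, Krt19 (1.47) in cycling cells and Krt14 (0.039) in myeloid cells. Those of Krt77 in tuft-like cells were -0.18 at resolution 0.5, -0.54 at resolution 2 and -0.63 with the stricter filter. In the tuft comparison 1 keratin passed 2-fold in both libraries at sub-clustering resolution 1, and 1 between the joint clusters, an alternative chosen after seeing the data. The causes were not tested, beyond the naming of the Gpx6 cells given above. Depth limits Krt26, Krt31 and Krt39, with 31, 15 and 22 UMIs in all.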
